A study of Homo sapiens with 6 samples.

Results

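The 9 genes described here act on the phosphorylation of eIF2α, the step through which stressed cells slow protein synthesis. Their rows were taken from the deposited table by symbol, 9 of 25445 rows, and all 9 were among the 15957 rows with enough counts to be tested. They are the genes of the eIF2α kinases EIF2AK1 (HRI), EIF2AK2 (PKR), EIF2AK3 (PERK) and EIF2AK4 (GCN2), of the phosphatase subunits PPP1R15A (GADD34) and PPP1R15B (CReP), of eIF2α itself (EIF2S1), and of OMA1 and IMPACT. The cells were MHCC-97H, an established human hepatocellular carcinoma line, exposed to 10 μM 6j, a compound made from the alkaloid sophoridine, or to its solvent for 16 h. Each group had 3 polyadenylated RNA libraries with replicate numbers from 1 to 3, and the solvent libraries are called non-treated here and control in the plots. Neither labels nor methods say that the replicates came from separate cultures, so the p-values measure the spread between these libraries, which may be technical. All libraries came from 1 cell line, and 1 dose and 1 time were measured.

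As background, eIF2 brings the initiator tRNA to the ribosome, and phosphorylation of its α subunit blocks the exchange factor eIF2B and so lowers general translation. Each kinase senses another stress: HRI responds to heme shortage and to signals from damaged mitochondria, PKR to double-stranded RNA, PERK to unfolded protein in the ER, and GCN2 to uncharged tRNA and stalled ribosomes. The mRNAs of ATF4 and a few other factors are translated better under these conditions, and PPP1R15A is among the genes that ATF4 and CHOP switch on. GADD34 and CReP each bring protein phosphatase 1 to eIF2α and reverse the phosphorylation, the first after stress and the second at all times. These libraries measured transcripts only, and neither eIF2α phosphorylation nor kinase activity was measured in them.

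The libraries held 31533403 to 38018349 counts. Of the 12 hepatocyte and liver cancer markers, only KRT8 and KRT18, the keratins of simple epithelia, were above 1 CPM (counts scaled to a common library size after TMM normalization) in every library. TTR had no count, and ALB and AFP were at or under 0.212 CPM, so the labelled liver origin rested on the keratins and on 0.546 to 1.402 CPM of HNF4A. The list summed to 905 to 1109.9 CPM in non-treated and 706 to 825 CPM in 6j treated cells, where KRT8 fell, and its part in the results was not tested. The summed level of the 6 fibroblast markers was 269 to 329 CPM in non-treated and 248 to 315 CPM in 6j treated cells, mostly COL1A1, while COL1A2 had no count. The 5 endothelial markers summed to 2.24 to 6.31 CPM over all libraries. The immune markers PTPRC, CD3E and MS4A1 had no count in any library. The list of 6 immune markers summed to 40.4 to 70.8 CPM in non-treated and 42.5 to 53.1 CPM in 6j treated cells. Nearly all of this was CD68, with 39.8 to 70.5 CPM in non-treated and 41.8 to 52.1 CPM in 6j treated cells.

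Among the 9 genes, PPP1R15A and EIF2AK3 rose after 6j and none fell at an adjusted p under 0.05 (edgeR's quasi-likelihood test, Benjamini-Hochberg adjustment over 15957 rows). That was 2 of 9 genes, where 9.16% of all rows tested passed in either direction, 4.79% of them higher and 4.37% lower in 6j treated cells. DESeq2 also called 2 higher and 0 lower, and at an unadjusted p under 0.05 in edgeR 1 was lower, EIF2AK4. Only PPP1R15A also had a fold change above 1.5, a rule that 3.6% of all rows met, 2.48% as higher and 1.12% as lower. In the fit blocked by replicate number, 4 of the 9 genes passed, 3 higher and 1 lower, where 26.9% of all rows passed, and 1 of 9 also had a fold above 1.5, where 6.47% of all rows did. The median log2 fold change of the 9 genes was 0.04, beside 0.00 over all rows. The groups did not overlap in 6 of the 9 genes, 3 higher and 3 lower in 6j treated cells, where 31.7% of all rows tested had groups that did not overlap.

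**Figure D1:**
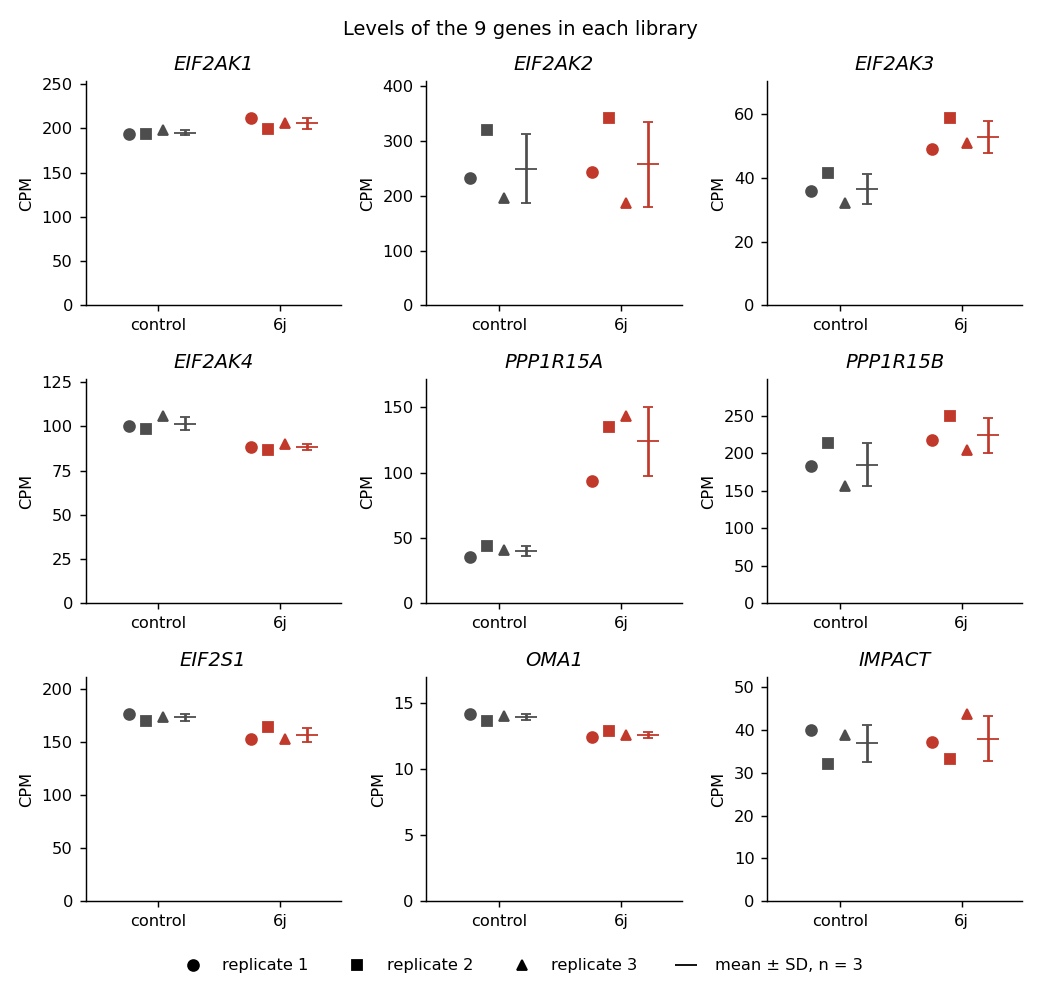
Level of each of the 9 genes in CPM (linear axes from 0) in the 3 control and the 3 6j libraries, with the symbol giving the replicate number and the bar the mean ± SD. The 6j libraries of PPP1R15A sit between 94.0 and 143 CPM, above all control libraries, while EIF2AK2 spreads by replicate number in both groups.

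The sequences upstream of the 3 genes that were higher in 6j treated cells at an adjusted p under 0.05 in the blocked fit are shown first. Without the block only PPP1R15A and EIF2AK3 passed, and PPP1R15B did not. The sequences are RefSeq promoter windows (GRCh38.p14), cut at the outermost start that RefSeq or GENCODE version 29 gives. They are read 5′ to 3′ on the strand of the gene. Capitals mark matches on either strand to the cAMP response element TGACGTCA, its short form TGACG, the C/EBP-ATF response element TGATGNAA, the ER stress response element (CCAAT and CCACG with 9 bases between them) and CCAAT alone. The short form is contained in the full cAMP response element, and CCAAT in the ER stress response element.
PPP1R15A, chr19:48872171-48872391, plus strand: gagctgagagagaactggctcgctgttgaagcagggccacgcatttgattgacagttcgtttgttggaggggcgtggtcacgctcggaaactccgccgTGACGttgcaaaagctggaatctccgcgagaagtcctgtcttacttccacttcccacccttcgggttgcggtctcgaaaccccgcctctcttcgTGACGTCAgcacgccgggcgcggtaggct
EIF2AK3, chr2:88627577-88627714, minus strand: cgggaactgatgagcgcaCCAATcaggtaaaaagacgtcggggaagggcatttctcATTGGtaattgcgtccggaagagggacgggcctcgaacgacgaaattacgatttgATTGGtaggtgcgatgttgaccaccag
PPP1R15B, chr1:204411818-204412067, minus strand: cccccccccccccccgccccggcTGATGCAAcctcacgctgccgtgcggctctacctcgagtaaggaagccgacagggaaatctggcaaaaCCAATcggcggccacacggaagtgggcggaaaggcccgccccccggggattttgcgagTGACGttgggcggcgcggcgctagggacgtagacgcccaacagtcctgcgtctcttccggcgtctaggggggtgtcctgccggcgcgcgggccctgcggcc

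PPP1R15A was the only one of the 8 genes with a window to hold the full TGACGTCA, at −58 to −51 from its RefSeq start, and 1.85% of 35116 RefSeq windows of the same length hold that motif. A separate short form lay from −152 to −148, and TGACG was found in 24.6% of all windows. The PPP1R15B window held the short form at −101 to −97 and, at −227 to −220, TGATGCAA, a match to TGATGNAA, which is in 3.62% of all windows. The EIF2AK3 window held CCAAT or its reverse complement 4 times, the nearest to the start at −53 to −49 in a stretch not printed, and 34.6% of all windows hold this motif. The ER stress response element was found in none of the 8 windows and in 0.0769% of all windows. The EIF2AK2 window held the interferon-stimulated response element (GAAA and GAAA with 2 bases between them) across its start, as did 3.57% of all windows. No window was found for EIF2AK1. These are letter matches, and binding was not measured.

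PPP1R15A encodes GADD34, the stress-inducible subunit that directs protein phosphatase 1 to eIF2α, and lies on chromosome 19 from 48872392 to 48876057 (GRCh38). In non-treated replicates 1, 2 and 3 its level was 35.7, 43.6 and 41.0 CPM, from 1347, 1375 and 1426 counts. In 6j treated replicates 1, 2 and 3 it was 94.0, 135 and 143 CPM, from 3611, 5106 and 4918 counts. Every 6j library was above every non-treated one, and the SD grew from 4.0 to 26.4 CPM (n = 3 each). The mean rose from 40.1 to 124 CPM, which was 3.09-fold or a log2 fold change of 1.63 (standard error 0.16, 95% confidence interval 1.27 to 1.99, edgeR adjusted p = 0.00213). By p-value it was at place 33 of the 15957 rows. It was called in all 6 fits that left out 1 library, with log2 fold changes of 1.51 to 1.79.

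PPP1R15B encodes CReP, the subunit made without stress, and lies on chromosome 1 from 204403387 to 204411791. Non-treated replicates 1, 2 and 3 held 184, 214 and 157 CPM, against 218, 249 and 204 CPM with 6j. Non-treated replicate 2 was above 6j replicate 3, so the groups overlapped, but within each number the 6j library was higher. The log2 fold change was 0.28 (95% confidence interval −0.00 to 0.56, edgeR adjusted p = 0.197), while the fit blocked by replicate number also gave 0.28 and passed the test (edgeR adjusted p = 0.00583). Leaving out 1 library without the block moved the log2 fold change between 0.17, without non-treated replicate 3, and 0.40. With the block 13.1% of all rows passed as higher in 6j treated cells.

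The difference between the phosphatase subunits was tested in its own right. The log2 CPM of PPP1R15A minus that of PPP1R15B was −2.36, −2.30 and −1.94 in non-treated and −1.22, −0.88 and −0.51 in 6j treated replicates 1, 2 and 3. All 6j values were above all non-treated values. The change was 1.33 against SDs of 0.23 and 0.35 within the groups, with p = 0.1 in a two-sided exact permutation test, the smallest p that 3 against 3 libraries allow. Within replicate numbers the change was 1.14, 1.41 and 1.42. The exact permutation test blocked by replicate number gave p = 0.25, the smallest p that swaps within 3 pairs allow. Per kilobase of the longest annotated transcript, PPP1R15A made up 29.9%, 30.9% and 36.5% of the summed level of both subunits in the non-treated replicates. In 6j replicates 1, 2 and 3 this share was 48.6%, 54.3% and 60.6%. The share thus went from 32.4% ± 3.52 to 54.5% ± 6.02 (SD, n = 3 each), without overlap between the groups. With the union of all annotated exons as the length it went from 27.0% ± 3.17 to 48.0% ± 6.06 (SD, n = 3 each). By that length PPP1R15B stayed the larger part in the 6j mean, though not in 6j replicate 3, where PPP1R15A made up 54.2%. In CPM, before division by length, PPP1R15B also stayed higher in 6j treated cells, with means of 224 against 124.

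**Figure D2:**
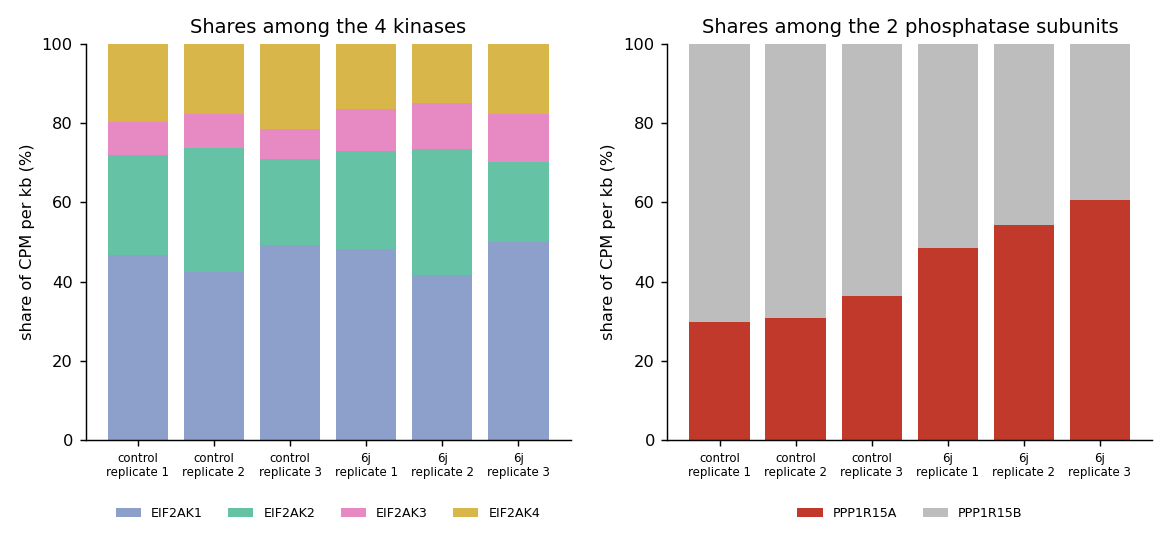
Share in percent of the summed level, in CPM per kilobase of the longest transcript, in each of the 6 libraries, for the 4 kinases (left) and the 2 phosphatase subunits (right). PPP1R15A goes from 29.9% to 36.5% in control to 48.6% to 60.6% in 6j, and EIF2AK3 from 7.70% to 8.76% in control to 10.8% to 11.9% in 6j.

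EIF2AK3 encodes PERK, the eIF2α kinase in the ER membrane, and lies on chromosome 2 from 88556741 to 88627576. Non-treated replicates 1, 2 and 3 were at 35.8, 41.5 and 32.2 CPM, against 49.1, 58.6 and 51.0 CPM with 6j. The lowest 6j library was above the highest non-treated library. The gene rose 1.45-fold, a log2 fold change of 0.54 (standard error 0.12, 95% confidence interval 0.27 to 0.80, edgeR adjusted p = 0.0247), just under the 1.5-fold threshold. This call was lost on leaving out non-treated replicate 1 (adjusted p = 0.107), non-treated replicate 3 (0.0732) or 6j replicate 2 (0.114) in edgeR. It held in the fit blocked by replicate number (adjusted p = 0.000425 in edgeR). PPP1R15A, EIF2AK3 and PPP1R15B each had their largest change within a replicate number in replicate 3, with log2 values of 1.80, 0.66 and 0.38.

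EIF2AK4 encodes GCN2, the kinase that uncharged tRNA activates, and lies on chromosome 15 from 39934146 to 40035591. It was at 100.2, 98.8 and 106 CPM in non-treated and 88.2, 86.9 and 90.2 CPM in 6j treated replicates 1, 2 and 3. All 6j libraries were below all non-treated ones. The log2 fold change of −0.20 (95% confidence interval −0.36 to −0.04) did not pass the test (edgeR adjusted p = 0.119). Blocked by replicate number it was −0.20 and passed (edgeR adjusted p = 0.0259), where 13.9% of all rows passed as lower. The fold change of 0.871 stayed inside the 1.5-fold threshold.

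EIF2AK1 encodes HRI, the heme-regulated kinase, on chromosome 7 from 6022244 to 6059230. Non-treated replicates 1, 2 and 3 were at 193, 193 and 198 CPM, against 211, 199 and 206 CPM with 6j. The groups did not overlap, yet the log2 fold change was only 0.08, with a 95% confidence interval of −0.08 to 0.24 and an edgeR adjusted p of 0.555. The interval leaves out a 1.5-fold change in either direction. On the opposite strand 532 exon bases are shared with AIMP2, and whether counting used strand is not given in the sources used here.

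EIF2AK2 encodes PKR, an interferon-induced kinase that binds double-stranded RNA, and lies on chromosome 2 from 37099210 to 37157065. Its level was 233, 319 and 196 CPM in non-treated and 243, 341 and 187 CPM in 6j treated replicates 1, 2 and 3. In both groups replicate 2 was the highest and replicate 3 the lowest, and the groups overlapped. The log2 fold change was 0.04 with a 95% confidence interval of −0.61 to 0.70 (edgeR adjusted p = 0.944). Blocked by replicate number, the log2 fold change was 0.03 and the interval narrowed to −0.10 to 0.16 (edgeR adjusted p = 0.758). Its biological coefficient of variation, the spread between replicates beyond counting error, was 23.7%, beside 9.50% to 14.9% in the other members and a median of 14.4% over all rows. EIF2AK2 shares 35 exon bases with GPATCH11 on the opposite strand.

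The 16 interferon-induced genes listed beside EIF2AK2 followed the replicate number as well. Their summed level was 5695, 8267 and 2571 CPM without 6j and 4445, 4629 and 1797 CPM with it, in replicates 1, 2 and 3. Replicate 2 was the highest non-treated library in 16 of 16 genes, and replicate 3 was the lowest in both groups in 15 of 16. In 14 of the 16, IFIT2 and OAS1 among them, the 6j library was lower within every replicate number, where 28.7% of all rows tested were, while MX1 had a log2 fold change of 0.30. None passed in edgeR or DESeq2 without a block, and 0 had an unadjusted p under 0.05 in edgeR (median log2 fold change −0.64), and 10 of 16 passed as lower in the blocked fit, where 13.9% of all rows did. The log2 CPM of EIF2AK2 minus the mean of these genes changed by 0.39, 0.82 and 0.65 within replicates 1, 2 and 3. Across the groups this was 0.62 (two-sided exact permutation test, p = 0.3, where 0.1 is the smallest possible). What set the libraries apart by number was not tested.

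**Figure D3:**
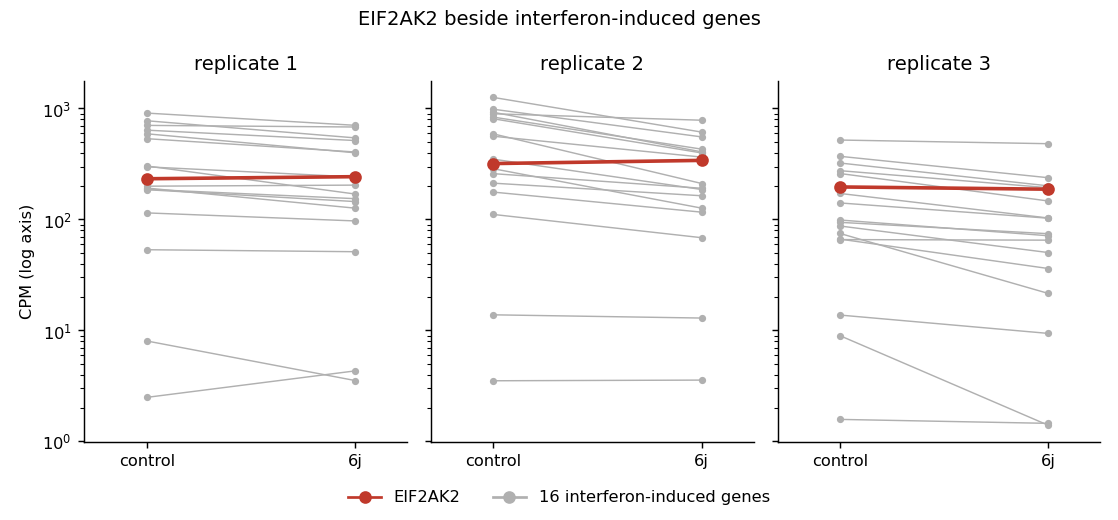
Level in CPM (log axis) of EIF2AK2 (red) and of 16 interferon-induced genes (grey) in the control and the 6j library of each replicate number. EIF2AK2 goes from 233 to 243, from 319 to 341 and from 196 to 187 CPM, while 14 of the 16 other genes are lower in 6j in every panel.

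Summed over the 4 kinases, the level per kilobase was 94.8 ± 6.33 in non-treated and 99.0 ± 7.47 CPM per kilobase in 6j treated cells (SD, n = 3 each), a difference smaller than the SDs (two-sided exact permutation test without pairing, p = 0.6). Within replicate numbers 1, 2 and 3 the sum went from 92.4 to 98.0, from 101.9 to 107 and from 90.0 to 92.1 CPM per kilobase, higher with 6j in each. EIF2AK1 was the largest part, with 46.2% ± 3.43 and 46.6% ± 4.37 (SD, n = 3 each), an order that rests on the lengths used. In CPM, before division by length, mean EIF2AK2 was above mean EIF2AK1, though not in replicate 3. The means were 249 against 195 in non-treated and 257 against 205 in 6j treated cells. Of the sum per kilobase, EIF2AK3 made up 8.27% ± 0.532 in non-treated and 11.5% ± 0.628 in 6j treated cells (SD, n = 3 each). Its groups did not overlap (exact permutation p = 0.1, the smallest possible). The share of EIF2AK4 was 19.6% ± 1.87 and 16.3% ± 1.51 (SD, n = 3 each), and here the groups overlapped (exact permutation p = 0.2). It was lower with 6j within each number, from 19.7% to 16.4%, from 17.6% to 14.8% and from 21.3% to 17.8%. With the exon union as the length the share of EIF2AK4 was 11.6% ± 1.30 and 9.54% ± 1.03, and that of EIF2AK3 9.11% ± 0.443 and 12.5% ± 0.712 (SD, n = 3 each), with the same exact permutation p-values. Measured against the mean log2 CPM of the kinases, PPP1R15A was at −1.66, −1.53 and −1.39 in non-treated and −0.38, −0.01 and 0.31 in 6j treated replicates 1, 2 and 3. The mean went from −1.52 to −0.03 on the log2 scale, again with the smallest possible exact permutation p, 0.1. Blocked by replicate number, the exact permutation p was 0.25, the smallest possible with 3 pairs. In bulk libraries fewer cells with a transcript and less of it per cell cannot be told apart.

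EIF2S1 encodes eIF2α, the substrate of all 4 kinases, on chromosome 14 from 67359997 to 67386516. Its level was 176, 170.1 and 173 CPM in non-treated and 153, 164 and 153 CPM in 6j treated replicates 1, 2 and 3. The 6j libraries were all lower, but the log2 fold change of −0.14 (95% confidence interval −0.31 to 0.02) did not pass the test (edgeR adjusted p = 0.25, and 0.114 in the blocked fit). The gene shares 269 exon bases with ATP6V1D on the opposite strand. EIF2S2, the gene of the β subunit of eIF2, rose from 170.2, 178 and 161 CPM to 226, 249 and 215 CPM (log2 fold change 0.44, edgeR adjusted p = 0.0181). The γ subunit gene EIF2S3 had a log2 fold change of 0.15 (edgeR adjusted p = 0.451).

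OMA1 encodes the inner membrane protease that passes mitochondrial stress to HRI by cleaving DELE1, and lies on chromosome 1 from 58415384 to 58546802. With 431 to 533 counts per library it was the lowest of the 9 genes. Its level was 14.1, 13.7 and 13.99 CPM in non-treated and 12.4, 12.9 and 12.6 CPM in 6j treated replicates 1, 2 and 3. The groups did not overlap, and the log2 fold change of −0.14 (95% confidence interval −0.40 to 0.11) did not pass the test (edgeR adjusted p = 0.471). OMA1 shares 257 exon bases with DAB1 on the same strand. IMPACT, whose protein binds GCN1 and holds back GCN2, lies on chromosome 18 from 24426616 to 24453535 and was at 40.0, 31.9 and 38.7 CPM in non-treated and 37.1, 33.1 and 43.6 CPM in 6j treated replicates 1, 2 and 3. Replicate 2 was the lowest in both groups, the groups overlapped, and the log2 fold change was 0.04 (95% confidence interval −0.25 to 0.33, edgeR adjusted p = 0.886).

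**Figure D4:**
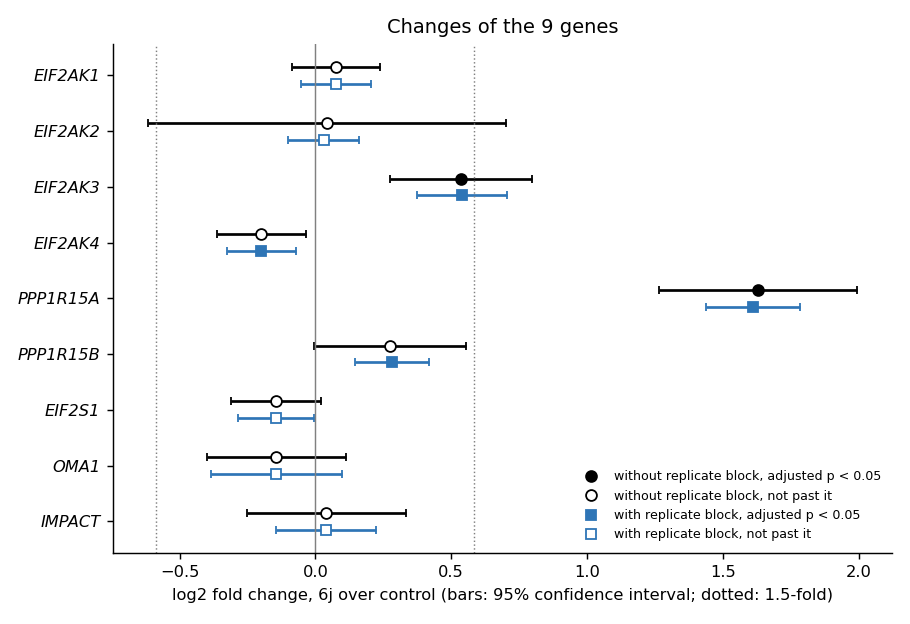
Log2 fold change (6j over control) of the 9 genes with 95% confidence intervals, without (circles) and with (squares) a block for replicate number, filled where the adjusted p was under 0.05. PPP1R15A at 1.63 stands apart, EIF2AK3 at 0.54 is filled in both fits, and EIF2AK4 and PPP1R15B are filled only with the block.

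Levels were compared between genes per kilobase of the longest annotated transcript. In non-treated cells the order was EIF2AK1 (43.6 ± 0.575 CPM per kilobase), EIF2S1 (38.6 ± 0.672), PPP1R15B (35.4 ± 5.50), EIF2AK2 (24.8 ± 6.27) and EIF2AK4 (18.5 ± 0.655). These were followed by PPP1R15A (16.9 ± 1.68), IMPACT (9.72 ± 1.14), EIF2AK3 (7.86 ± 1.01) and OMA1 (6.62 ± 0.115), all with the SD and n = 3. Of the 8 gaps between neighbours, only those below EIF2AK1, PPP1R15A and EIF2AK3 were wider than both SDs added. In 6j treated cells PPP1R15A was first with 52.2 ± 11.1 CPM per kilobase (SD, n = 3), ahead of EIF2AK1 with 46.0 ± 1.32 and PPP1R15B with 42.9 ± 4.42 by less than that spread. PPP1R15A thus moved from place 6 to place 1 of 9. With the union of all annotated exons as the length it moved from place 5 to place 2. EIF2AK3 (11.4 ± 1.09 CPM per kilobase, SD, n = 3) remained below EIF2AK4 (16.1 ± 0.297) in 6j treated cells, but with the union length it was above it, at 9.74 ± 0.930 against 7.40 ± 0.137.

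The profiles most like that of PPP1R15A over the 6 libraries, by the root mean square difference of log2 CPM centred on the non-treated mean, were those of DDR2 (0.206), TM4SF19 (0.208), ASNS (0.208), UPP1 (0.218) and CLDN1 (0.236). The levels of these 5 genes differed widely, from 2.78 CPM for TM4SF19 to 74.0 CPM for ASNS in non-treated cells. Their log2 fold changes lay between 1.35 for UPP1 and 1.74 for ASNS.

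Other genes of the pathway were read from 7 lists with 61 genes tested, of which 20 rose and 5 fell at an adjusted p under 0.05 in edgeR while 36 did not pass. That was 32.8% higher and 8.2% lower, where 4.79% and 4.37% of all rows passed. Of the 20 genes that rose, 10 belong to the ATF4 branch, in which 10 of 14 rose, none fell and the median log2 fold change was 1.41. ATF4, the transcription factor whose mRNA is translated under eIF2α phosphorylation, rose 2.14-fold, and DDIT3, which encodes CHOP, rose by 2.27 on the log2 scale. ASNS, the asparagine synthetase gene, rose by 1.74, and CEBPG, which encodes a partner of ATF4, by 1.36. CEBPB was not among them, with a log2 fold change of 0.04 (edgeR adjusted p = 0.888). Earlier results for several of these genes were known when the list was written.

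Among the other ER stress sensors, 4 of 8 rose and none fell, where 4.79% and 4.37% of all rows did, with a median log2 fold change of 0.28. In the blocked fit 5 were higher and none lower, where 13.1% and 13.9% of all rows were. ERN1, which encodes the ER kinase and nuclease IRE1α, went from 12.6, 12.4 and 9.05 CPM to 26.2, 32.3 and 25.7 CPM (2.47-fold, edgeR adjusted p = 0.00385). ATF6, the gene of the sensor that is cleaved in the Golgi, rose by 0.49 (edgeR adjusted p = 0.0113), XBP1, whose mRNA IRE1α splices, by 0.53 (0.0131) and CREB3 by 0.32 (0.0416). With 1 library left out, ERN1 was called in 6 of 6 fits, ATF6 and XBP1 in 4 and CREB3 in 1. EIF2AK3 with 0.54 was thus near ATF6, and per kilobase both were more abundant than ERN1, which was at 1.44 in non-treated and 3.56 CPM per kilobase in 6j treated cells.

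Of 11 genes whose products act on the kinases, 2 rose and none fell, where 4.79% and 4.37% of all rows did, and the median log2 fold change was 0.01. In the blocked fit 2 were higher and 2 lower, where 13.1% and 13.9% of all rows were. HSPA5, the gene of the ER chaperone BiP that holds PERK inactive, rose by 0.40 on the log2 scale (edgeR adjusted p = 0.033). DNAJC3, the gene of the inhibitor p58IPK, rose by 0.43 (edgeR adjusted p = 0.0374). On leaving out 1 library, HSPA5 was called in 1 and DNAJC3 in 2 of 6 fits. GCN1, which GCN2 needs for its activation, was at 407, 372 and 366 CPM in non-treated and 330, 305 and 302 CPM in 6j treated replicates 1, 2 and 3. Its log2 fold change of −0.29 did not pass the test (edgeR adjusted p = 0.0611) and did so in the fit blocked by replicate number (0.00255). DELE1, the OMA1 substrate that activates HRI, was at 52.0, 53.0 and 47.7 CPM and at 55.9, 50.8 and 46.8 CPM, a log2 fold change of 0.01 (edgeR adjusted p = 0.967).

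**Figure D5:**
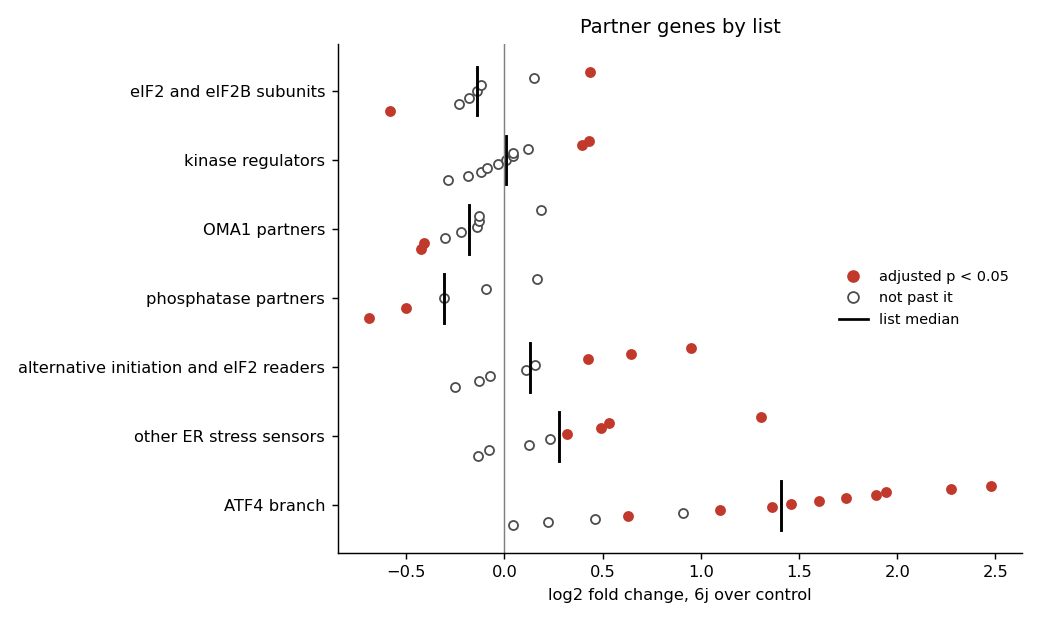
Log2 fold change (6j over control) of 61 pathway genes in 7 lists, filled where the edgeR adjusted p was under 0.05, with a line at the median of each list. The ATF4 branch lies to the right with a median of 1.41, and the medians of the other lists lie between −0.31 and 0.28.

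Of the 8 OMA1 partners, none rose and 2 fell, where 4.79% and 4.37% of all rows did, with a median log2 fold change of −0.18. In the blocked fit none were higher and 4 lower, where 13.1% and 13.9% of all rows were. SPG7, a subunit of an inner membrane protease, fell by 0.42 (edgeR adjusted p = 0.0241), and PHB, which encodes a prohibitin, fell by 0.41 (edgeR adjusted p = 0.0317), calls that 3 and 1 of the 6 fits with 1 library left out also gave. YME1L1, the protease that acts on OMA1 and OPA1, was at 172, 168 and 181 CPM and at 184, 218 and 189 CPM (log2 fold change 0.18, edgeR adjusted p = 0.223). Among the 7 eIF2 and eIF2B subunit genes, EIF2S2 rose and EIF2B3, the gene of the γ subunit of the exchange factor, fell. Over all rows the shares were 4.79% higher and 4.37% lower. In the blocked fit 1 of the 7 was higher and 3 lower, where 13.1% and 13.9% of all rows were. EIF2B3 was at 33.6, 33.6 and 33.7 CPM in non-treated and 24.6, 21.3 and 21.5 CPM in 6j treated replicates 1, 2 and 3 (log2 fold change −0.58, edgeR adjusted p = 0.0116). With 1 library left out, EIF2S2 was called in 3 and EIF2B3 in 4 of 6 fits. EIF2B5, which encodes the catalytic subunit, had a log2 fold change of −0.23 (edgeR adjusted p = 0.164, and 0.0218 in the blocked fit).

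Of the 5 phosphatase partners, none rose and 2 fell, where 4.79% and 4.37% of all rows did. These were the actin genes ACTB (log2 fold change −0.69, edgeR adjusted p = 0.0092) and ACTG1 (−0.50, 0.0459), whose monomers bind the PPP1R15 subunits and whose reads could be shared with processed pseudogenes. ACTB was called in 5 and ACTG1 in 1 of the 6 fits that left out 1 library. In the blocked fit 1 of the 5 partners was higher and 3 lower, where 13.1% and 13.9% of all rows were. The catalytic subunit genes of protein phosphatase 1 did not pass the test in edgeR, and DESeq2 called PPP1CA lower (adjusted p = 0.0221). PPP1CA was at 121, 119.8 and 120.5 CPM in non-treated and 105, 87.0 and 99.8 CPM in 6j treated replicates 1, 2 and 3 (log2 fold change −0.31, edgeR adjusted p = 0.0592, and 0.00585 in the blocked fit). PPP1CB had a log2 fold change of 0.16 (edgeR adjusted p = 0.21, and 0.0463 with the block), and PPP1CC of −0.10 (edgeR adjusted p = 0.597). Among 8 genes listed as alternative initiation and eIF2 readers, with EIF4EBP1 and QRICH1 among them, 3 rose and none fell. Over all rows 4.79% rose and 4.37% fell. In the blocked fit 3 were higher and 1 lower, where 13.1% and 13.9% of all rows were. EIF4EBP1, which encodes an inhibitor of cap-dependent initiation, rose by 0.95 on the log2 scale (edgeR adjusted p = 0.00314), EIF1 by 0.64 (0.00489) and EIF5 by 0.42 (0.0157). EIF5 was called in 2 of 6 fits with 1 library left out, and EIF4EBP1 and EIF1 in 6. Over the 61 genes DESeq2 called 30, against 25 in edgeR. In the directions in which a list had no call in edgeR, DESeq2 gave 1, GCN1 as lower, and an unadjusted p under 0.05 in edgeR gave 2, GCN1 and MCTS1, both lower. Of the 61 genes, 11 passed when non-treated replicate 1 was left out and 13 when 6j replicate 2 was.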

How the data were processed

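RNA from 3 6j treated and 3 non-treated libraries was sequenced by the authors' company after oligo(dT) selection, and the authors deposited a table of raw counts, 1 row per gene, without normalization. The submitters' processing notes name HISAT2, StringTie and GRCh38. Versions, the annotation and the use of strand are not given in the sources used here. No column was left out. The members and gene lists were chosen with earlier results of these data known.

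Counts were fitted over the whole table in edgeR 4.0.16 (R 4.3.3) with TMM, filterByExpr and robust quasi-likelihood, adjusted by Benjamini-Hochberg over 15957 rows. Thresholds were an adjusted p under 0.05 and, where stated, a fold change above 1.5. Standard errors and intervals came from the F statistic. Log2 CPM used a prior count of 2. Differences between genes were tested by exact permutation. DESeq2 1.42.0, other filters and normalization, the replicate block and leaving out libraries were the alternatives. The exon union length was added after the data were seen. Methods were tested on simulated data.

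Same-numbered libraries deviated from their group means together (correlations of 0.171, 0.18 and 0.312 across rows, against −0.231 to 0.0795 for other pairs). The numbers were therefore taken to pair the libraries, although no label says what a number marks. Centring on group means draws the other pairs to negative values once same-numbered pairs are positive. The pairing thus rests on these same data. Lengths and coordinates came from GENCODE version 29, in which all 19974 Ensembl identifiers were found. Of the 9 members, 8 had a RefSeq promoter window, of 250 bases before and 50 after the start, and start positions count the first transcribed base as 0. All members were named. From each list, up to 4 genes with the smallest adjusted p under 0.05 were named, with GCN1, DNAJC3, HSPA5, DELE1, PPP1CA, PPP1CB, PPP1CC, EIF2B5, ATF4 and DDIT3, and other list genes were chosen after their values were seen. Most lists are named in the text only in part, among them the pathway lists, the interferon-induced genes and the cell type markers given with the depth. Of the 9 other ER stress sensors listed, 8 were tested, and CREB3L1 did not pass the count filter. Depth limits OMA1 most, which had the fewest counts.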

Additional observations from a re-analysis of the deposited data

How the results depend on the processing

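The rise of PPP1R15A kept its direction and its call in all 13 alternatives, with edgeR or DESeq2 adjusted p up to 0.0189. With the replicate number as a block, which pairs the libraries, 4 of the 9 genes passed an adjusted p under 0.05 in edgeR and 4 in DESeq2, against 2 without it, because PPP1R15B and EIF2AK4 then passed. EIF2AK3 and PPP1R15A kept their calls there, and the number with a fold above 1.5 was 1 with and without the block. The differences of PPP1R15A from PPP1R15B and from the kinase mean kept their values with the block. Their exact permutation p was 0.25 with it and 0.1 without it, in each case the smallest possible. Leaving out 1 library gave 1 to 2 genes that passed, 1 to 2 with a fold above 1.5 (EIF2AK3 joined on leaving out non-treated replicate 2 or 6j replicate 1) and 11 to 26 of the 61 pathway genes, with 25 in all libraries and 37 with the block. The log2 fold change of EIF2AK2 then ranged from −0.21 to 0.26 and that of IMPACT from −0.070 to 0.13. The sign of EIF2AK2 reversed on leaving out non-treated replicate 1, non-treated replicate 3 or 6j replicate 2. That of IMPACT reversed on leaving out non-treated replicate 2 or 6j replicate 3. The change in PPP1R15A minus the kinase mean ranged from 1.33 to 1.67. Over all rows, 574 were called with a fold above 1.5, against 1033 with the replicate block, 875 with it in DESeq2, 1136 at an unadjusted p, and 186 to 772 with 1 library left out. These counts fell most without non-treated replicate 1 (186) and 6j replicate 2 (193). The cause was not tested. With 3 libraries a group, the confidence intervals given for each gene limit how small a change could be seen, and transcripts do not measure phosphorylation.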
